A study of Rattus norvegicus with 6 samples.

Results

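The insulin receptor Insr, the insulin-like growth factor 1 receptor Igf1r and 8 genes for proteins that act directly behind them were followed in rat beta cells with and without knockdown of Nova1, an RNA-binding protein that regulates splicing in neurons and in beta cells. The 10 genes were taken by their names in the deposited transcript assembly, and they are 10 of its 24579 gene models. They hold 39 transcripts, of which 20 match a reference transcript and 19 are new combinations of exons. The cells were primary beta cells of the rat pancreas, purified by fluorescence-activated cell sorting, in 3 batches, each of which gave 1 library with Nova1 siRNA and 1 library with a control siRNA. The knockdown libraries come from cells given 30 nM of the siRNA against Nova1 for 16 h and left to recover for 48 h, and the control libraries from cells given 30 nM of a nonsilencing siRNA, AllStars Negative Control, for the same times. The labels give neither the strain and age of the rats nor how many animals a batch pools.

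Both receptors are tyrosine kinases that phosphorylate themselves when insulin or an insulin-like growth factor binds. The phosphorylated receptors recruit the docking proteins Irs1 and Irs2, which bind the regulatory subunits of class I phosphoinositide 3-kinase (PI3K), and the adaptors Shc1 and Grb2, which lead to the RAS and ERK branch, while Grb10 binds the same receptors and dampens them. In mouse beta cells, loss of Insr or of Irs2 impairs insulin secretion or beta cell mass, so this machinery is known both for the response of other tissues to insulin and for the upkeep of the cells that make it.

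The knockdown libraries held 130251486, 95394043 and 146453308 reads assigned to transcripts in batches 1, 2 and 3, against 292432076, 122637234 and 199930608 reads in the control libraries. Nova1 stood at 7.76, 10.2 and 9.43 CPM (reads scaled to sequencing depth) in the knockdown libraries, against 20.6, 21.5 and 17.4 CPM in the control libraries. Its log2 fold change was -1.12 (SE 0.11, limma, adjusted p = 0.038). Of 12 beta cell markers, 11 could be tested and 0 were called in limma, with 0 also at an unadjusted p below 0.05. The estimate was positive for 3 and negative for 8, with a median log2 fold change of -0.05. The summed level of the markers was 485000, 220000 and 462000 RPKM (reads scaled to transcript length and sequencing depth) in knockdown libraries against 459000, 295000 and 481000 RPKM in control libraries. The remaining beta cell marker, G6pc2, was at 0.0664 RPKM or less in every library, through a gene model of 458 nt. Across all 15983 gene models tested, limma called 1.71% at an adjusted p below 0.05, with 0.513% higher and 1.2% lower in knockdown.

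None of the 10 genes passed that threshold. All 10 were abundant enough to be tested, limma with batch as a block called 0 of them, and 3 had an unadjusted p below 0.05, against 23.9% of all genes at that unadjusted threshold. The 3 genes were Insr, Grb10 and Pik3r3, and each of them was higher in every knockdown library than in any control library, a pattern that 3.96% of all genes showed. For 0 of the 10 did every knockdown library lie below the control libraries, against 4.1% of all genes. The estimate was positive for 7 genes and negative for 3, with a median log2 fold change of 0.17, against 50.8% positive and a median of 0.004 over all genes tested. Insr, Grb10, Pik3r1 and Pik3r3 were higher in the knockdown library within all 3 batches, and Irs2 and Grb2 were lower within all 3, compared with 25.7% and 24.3% of all genes. Nothing in the labels says that each batch came from animals of its own. The p-values then cover only how far the difference between knockdown and control varied from batch to batch.

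Sequences at the RefSeq starts of the 3 genes whose groups did not overlap are shown. These genes have the smallest adjusted p among the 10. Each line gives the 250 bases before and the first 50 bases of the gene in RefSeq, on the rat assembly GRCr8 and on the gene's strand, for Insr at chr12:6128754-6129053 (minus strand), Grb10 at chr14:90816338-90816637 (minus strand) and Pik3r3 at chr5:134938356-134938655 (plus strand). Capitals mark the core of the motif bound by FoxO transcription factors, which insulin signalling keeps out of the nucleus (GTAAACA or, on the other strand, TGTTTAC), and the GC box bound by Sp factors (GGGCGG or CCGCCC).
Insr: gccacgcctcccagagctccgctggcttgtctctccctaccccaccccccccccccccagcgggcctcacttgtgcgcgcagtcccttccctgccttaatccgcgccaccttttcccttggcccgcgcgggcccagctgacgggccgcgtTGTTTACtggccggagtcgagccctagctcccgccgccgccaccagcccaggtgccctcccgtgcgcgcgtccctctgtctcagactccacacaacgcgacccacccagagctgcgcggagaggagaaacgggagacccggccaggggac
Grb10: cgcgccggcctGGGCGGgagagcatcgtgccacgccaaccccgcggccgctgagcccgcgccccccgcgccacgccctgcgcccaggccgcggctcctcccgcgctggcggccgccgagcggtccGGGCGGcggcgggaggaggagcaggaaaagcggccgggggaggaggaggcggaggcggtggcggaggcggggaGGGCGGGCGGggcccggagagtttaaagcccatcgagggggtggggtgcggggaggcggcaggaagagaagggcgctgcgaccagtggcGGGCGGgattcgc
Pik3r3: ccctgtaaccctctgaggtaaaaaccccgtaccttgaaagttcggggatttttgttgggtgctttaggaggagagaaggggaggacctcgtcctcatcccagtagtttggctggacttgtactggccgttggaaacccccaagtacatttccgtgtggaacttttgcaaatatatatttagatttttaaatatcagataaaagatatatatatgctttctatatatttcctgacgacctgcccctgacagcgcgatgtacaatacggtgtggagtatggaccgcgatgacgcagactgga
The Insr window holds 1 FoxO core, which begins 100 bases before the start, and no GC box. The Grb10 window holds 5 GC boxes, some of them overlapping, and no FoxO core, and the Pik3r3 window holds neither. The assembled Pik3r3 transcripts began at 138858267 and 138859028 on the rat build Rnor_5.0. The Pik3r3 window was not matched to either start, so it may lie within the transcribed part of the gene. Nor were the Insr and Grb10 windows matched to the starts of their assembled transcripts. A FoxO core was present in 3.78% and a GC box in 33.1% of 33469 rat promoter windows of the same length. The windows differ widely in base composition, at 71.3% G and C for Insr, 79.7% for Grb10 and 45.3% for Pik3r3, against a median of 51.7% over all windows. The table matched 8 of the 10 genes, and Irs2 and Grb2 had no entry. GC boxes were not particular to the genes shown. The Pik3r1 window holds 7, that of Irs1 3, that of Pik3r2 2, and those of Igf1r and Shc1 1 each, without a FoxO core.

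Per length of transcript, the adaptor Grb2 was the most abundant of the 10 genes and Grb10 the least. Over the 6 libraries Grb2 averaged 74.3 ± 1.38 RPKM (SD, n = 6), Irs2 37.2 ± 14.2, Shc1 19.7 ± 2.27, Pik3r2 14.5 ± 1.91, Igf1r 13.4 ± 5.09 and Pik3r3 11.1 ± 1.35 RPKM. Pik3r1 followed at 3.39 ± 1.45, Insr at 2.99 ± 0.658, Irs1 at 1.63 ± 0.661 and Grb10 at 0.708 ± 0.145 RPKM. Grb2 did not overlap Irs2 in any library, and Irs2 stood above Shc1 with 23.8 RPKM in its lowest library against 23.5 RPKM in the highest of Shc1. Igf1r, Pik3r2 and Pik3r3 overlapped each other, and Igf1r overlapped Shc1 as well. Pik3r1, Insr and Irs1 also overlapped, and the lowest Irs1 value lay under the highest Grb10 value. Among all genes tested, the mean RPKM of Grb2 was at percentile 94.6 and that of Insr at percentile 40.0.

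**Figure D1:**
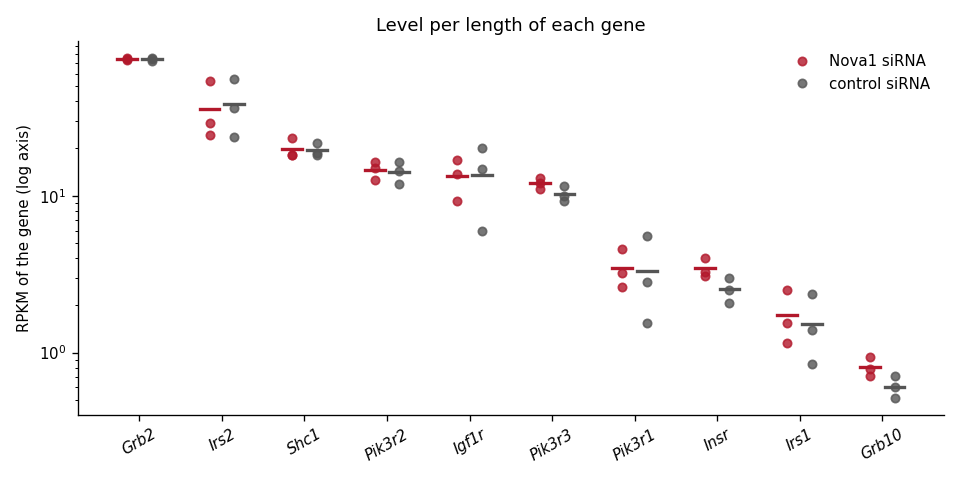
RPKM of each of the 10 genes on a log axis, with 1 point per library, the knockdown libraries to the left of the control libraries and lines at the group means. Grb2 averaged 74.3 RPKM over the 6 libraries and Grb10 0.708 RPKM, and Irs2, Igf1r, Irs1 and Pik3r1 spread most within a group.

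Insr encodes the insulin receptor and lies on the minus strand of chromosome 12 at 3848675 to 3989303 (all loci are on Rnor_5.0). It stood at 28.2, 32.1 and 28.7 CPM in the knockdown libraries of batches 1, 2 and 3, against 25.2, 25.4 and 19.7 CPM in the control libraries. The groups did not overlap, and the lowest value was that of the control library of batch 3. The log2 fold change was 0.34 (SE 0.08, 95% CI 0.13 to 0.56), with an unadjusted p of 0.0081 and an adjusted p of 0.10 in limma. Within batches 1, 2 and 3 it was 0.16, 0.34 and 0.54. In RPKM, where library scaling and transcript length enter differently, Insr had 3.28, 4.0 and 3.09 RPKM in knockdown libraries against 2.51, 3.01 and 2.08 RPKM in control libraries. These groups did not overlap either. The share of all genes whose groups stay apart in RPKM was not determined, and the RPKM values come from the same libraries.

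Igf1r, on the plus strand of chromosome 1 at 129983899 to 130272621, encodes the receptor for insulin-like growth factors. It had 167, 200 and 101 CPM in knockdown libraries, against 162, 208 and 70.3 CPM in control libraries. The spread ran between batches, with batch 3 low in both groups, and the groups overlapped. The log2 fold change was 0.17 (SE 0.12, 95% CI -0.13 to 0.47, limma, adjusted p = 0.43). The estimate came from batch 3, which gave 0.53, while batches 1 and 2 gave 0.05 and -0.06, and without batch 3 it was -0.01. Igf1r exceeded Insr per length in every library, with an RPKM ratio of 4.21, 4.22 and 3.0 in knockdown libraries against 5.86, 6.64 and 2.88 in control libraries. That ratio overlapped between the groups because of the low control value of batch 3.

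Irs2, on the plus strand of chromosome 16 at 83286050 to 83311241, encodes the docking protein that beta cells depend on most. It had 207, 335 and 168 CPM in knockdown libraries, against 254, 359 and 175 CPM in control libraries. Each knockdown library lay below the control library of its own batch, but the difference between batches was larger than that within any of them. The log2 fold change was -0.15 (SE 0.06, limma, adjusted p = 0.21), at -0.29, -0.10 and -0.06 in batches 1, 2 and 3. With a correction for transcript length it was -0.25 (SE 0.04) and passed, at an adjusted p of 0.046, where limma called 586 genes in all.

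Irs1, on the minus strand of chromosome 9 at 87779040 to 87835968, is the related docking protein that predominates in muscle. Its level was 13.8, 20.6 and 9.86 CPM in knockdown libraries, against 12.6, 20.8 and 7.17 CPM in control libraries. The order of the batches was the same as for Igf1r, with batch 2 highest and batch 3 lowest. Irs1 had a log2 fold change of 0.17 (SE 0.10, limma, adjusted p = 0.34), with 0.14, -0.01 and 0.46 by batch. Per length, Irs2 exceeded Irs1 18.8, 21.5 and 21.2 times in knockdown libraries against 26.2, 23.5 and 28.1 times in control libraries. These ratios did not overlap between the groups, but an exact permutation test within 3 batches cannot give a p below 0.25, and the ratio was chosen after its values were seen.

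Grb10, an adaptor that binds both receptors and inhibits their kinase, lies on the minus strand of chromosome 14 at 91818383 to 91914900. It had 3.69, 4.41 and 4.11 CPM in knockdown libraries, against 2.72, 3.48 and 3.32 CPM in control libraries. The lowest knockdown value exceeded the highest control value, by a narrow margin. Grb10 had a log2 fold change of 0.36 (SE 0.09, 95% CI 0.14 to 0.58), with an unadjusted p of 0.0079 and an adjusted p of 0.10 in limma, and 0.44, 0.34 and 0.31 by batch. Grb10 rested on the fewest reads of the 10 genes, between 454 and 750 in a library.

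Grb2, the adaptor that brings the RAS exchange factor Sos to a receptor, lies on the plus strand of chromosome 10 at 104019810 to 104087253. It was at 210, 178 and 206 CPM in knockdown libraries, against 211, 189 and 209 CPM in control libraries. For Grb2 the log2 fold change was -0.04 (SE 0.05, 95% CI -0.15 to 0.08, limma, adjusted p = 0.63). Shc1, which couples phosphorylated receptors to Grb2 and lies on the plus strand of chromosome 2 at 208159751 to 208171350, had 58.7, 66.8 and 59.3 CPM in knockdown libraries, against 59.5, 63.8 and 62.5 CPM in control libraries. Its log2 fold change was -0.01 (SE 0.05, 95% CI -0.14 to 0.12, limma, adjusted p = 0.92). They were also the steadiest of the 10 genes, as the highest library exceeded the lowest 1.18 times for Grb2 and 1.14 times for Shc1.

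The 3 genes for regulatory subunits of PI3K differed from one another. Pik3r3, on the plus strand of chromosome 5 at 138858267 to 138931707, encodes p55 gamma. It had 51.2, 51.7 and 51.4 CPM in knockdown libraries, against 41.5, 44.9 and 42.6 CPM in control libraries. The groups did not overlap and the knockdown libraries lay closer together (SD 0.222 CPM, n = 3) than the control libraries (SD 1.74 CPM, n = 3). The log2 fold change was 0.26 (SE 0.05, 95% CI 0.14 to 0.38), at 0.30, 0.20 and 0.27 by batch, with an unadjusted p of 0.0027 and an adjusted p of 0.070 in limma, the lowest of the 10.

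Pik3r1, which encodes p85 alpha and the shorter forms p55 alpha and p50 alpha, lies on the minus strand of chromosome 2 at 50891210 to 50975726. It had 21.1, 28.5 and 17.7 CPM in knockdown libraries, against 17.9, 28.0 and 11.1 CPM in control libraries. It was higher in the knockdown library of each batch, with 0.24, 0.03 and 0.67 on the log2 scale, and the groups overlapped. The fit gave 0.30 (SE 0.13, limma, adjusted p = 0.23). Pik3r2, which encodes p85 beta and lies on the plus strand of chromosome 16 at 20272083 to 20282048, had 48.7, 47.2 and 41.9 CPM in knockdown libraries, against 47.2, 50.2 and 40.5 CPM in control libraries. Its log2 fold change was 0.00 (SE 0.05, 95% CI -0.13 to 0.14, limma, adjusted p = 0.98). Per length, Pik3r3 exceeded Pik3r1 in every library, 3.45, 2.81 and 4.56 times in knockdown libraries against 3.53, 2.07 and 5.94 times in control libraries.

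**Figure D2:**
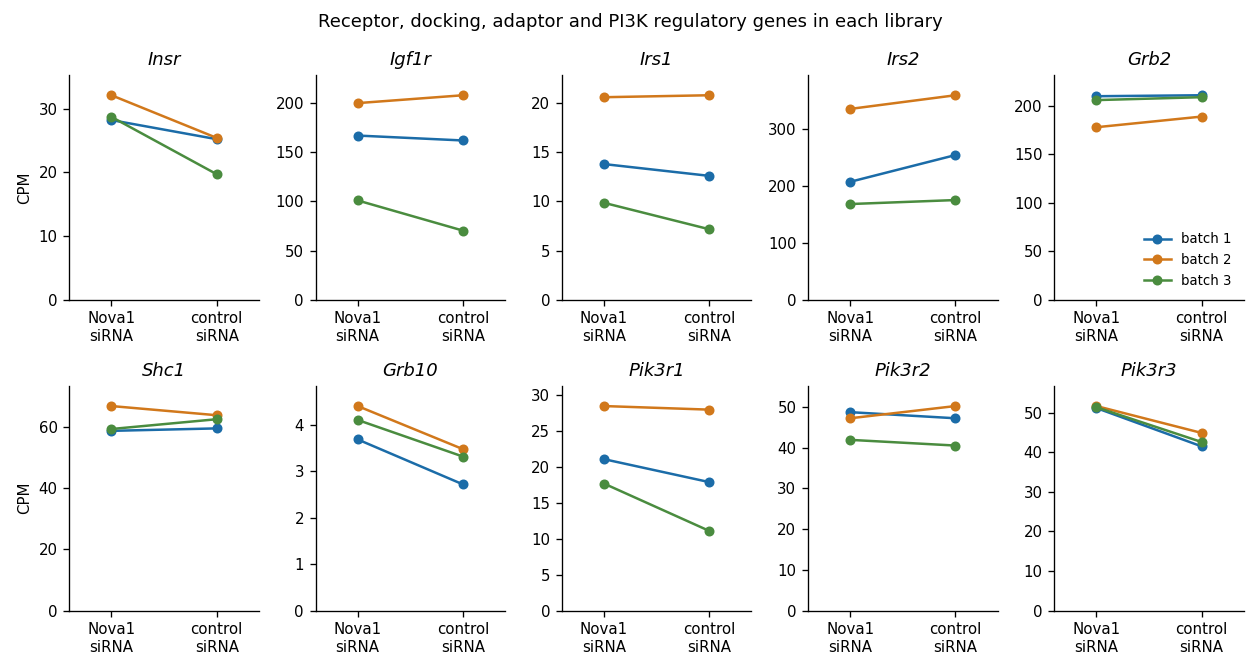
CPM of each of the 10 genes in each library, 1 panel per gene with its own axis, the knockdown group left of the control group and a line joining the libraries of a batch. Insr, Grb10 and Pik3r3 do not overlap between the groups, whereas Igf1r, Irs1, Irs2 and Pik3r1 differ more between batches than between groups.

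Between batches, 4 of the 10 genes varied at least 2-fold, a share close to that of all genes, 38.1%. The highest of the 6 libraries exceeded the lowest 2.97 times for Igf1r, 2.89 times for Irs1, 2.57 times for Pik3r1 and 2.14 times for Irs2, and all 4 were highest in batch 2 and lowest in batch 3 in both groups. Insr and Grb10 differed 1.63 and 1.62 times, and Pik3r2 and Pik3r3 1.24 times each. The same 4 genes reached a 2-fold range among the 3 control libraries alone, as did 24.9% of all genes.

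**Figure D3:**
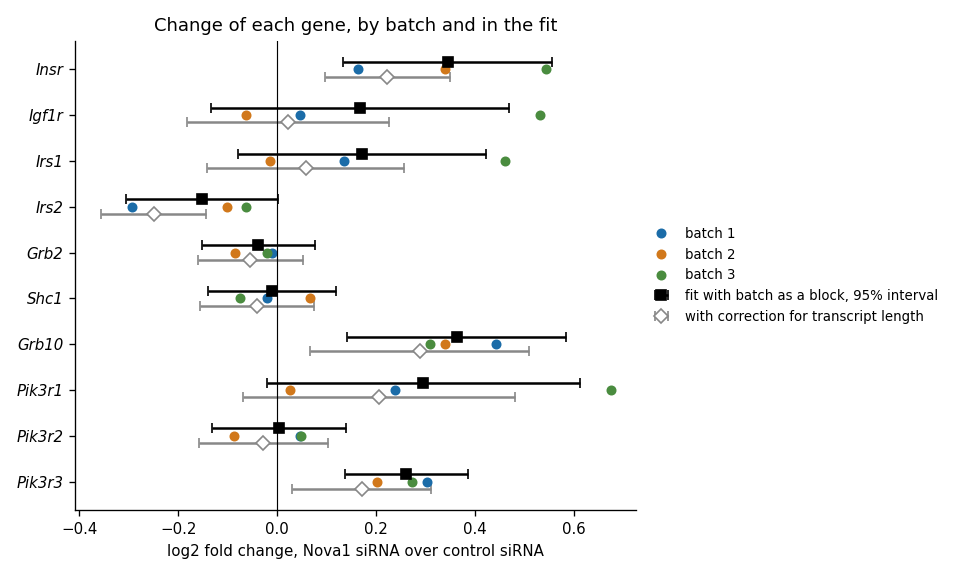
Log2 fold change of each of the 10 genes, knockdown over control, with 1 point per batch, the limma estimate as a square with its 95% interval, and the estimate with the length correction as an open diamond with its interval. The intervals of Insr, Grb10 and Pik3r3 lie above 0, at 0.13 to 0.56, 0.14 to 0.58 and 0.14 to 0.38, and batch 3 gives the highest point for Insr, Igf1r, Irs1, Irs2, Pik3r1 and Pik3r2.

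Transcript length moved with the fold changes. Over all genes tested the log2 fold change had a Spearman correlation of 0.32 with the read-weighted transcript length (a description across genes, which share the same libraries), and the 10 genes are long, at a median of 6194 nt against 2389 nt over all genes. Of the 7 genes longer than 5000 nt, 6 had a positive estimate, the exception being Irs2 at 6659 nt. After the correction for length the log2 fold change was 0.22 (SE 0.05, limma, adjusted p = 0.077) for Insr, 0.29 (limma, adjusted p = 0.13) for Grb10 and 0.17 (limma, adjusted p = 0.15) for Pik3r3. It was 0.02 for Igf1r and 0.06 for Irs1, and that of Pik3r2 was -0.03.

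**Figure D4:**
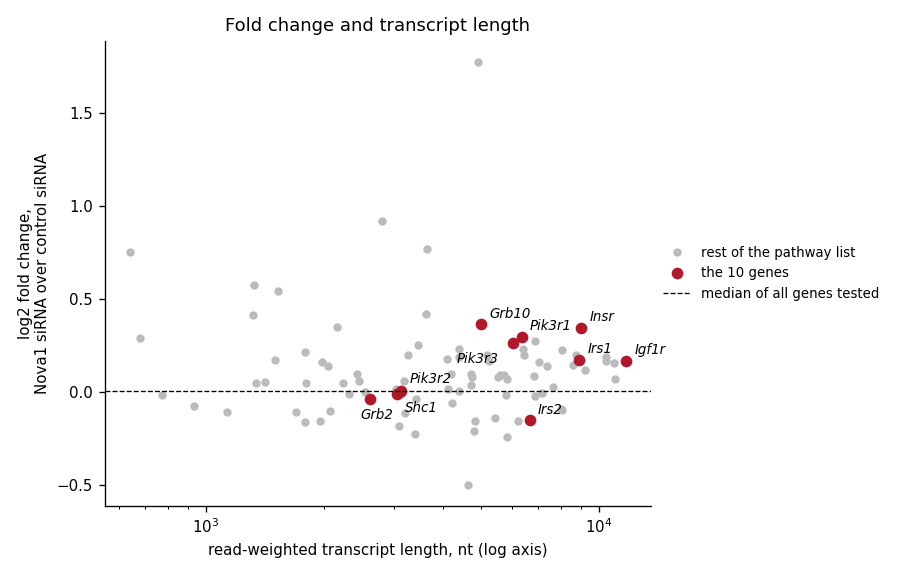
Log2 fold change, knockdown over control, against read-weighted transcript length on a log axis, with the 10 genes named, the wider insulin and IGF pathway list as smaller points and a dashed line at the median of all genes tested, 0.004. Among the 7 genes longer than 5000 nt only Irs2, at 6659 nt and -0.15, lies below the line.

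No transcript of the 10 genes passed the test of its share of the gene. Of the 39 transcripts, 27 passed the filter, which asks for reads in at least 3 libraries, and were tested with limma's diffSplice. Of these, 0 were called and 1 had an unadjusted p below 0.05. Of all transcripts tested, 0.309% were called and 9.01% had an unadjusted p below 0.05. With no filter, 36 transcripts of the 10 genes were tested and 0 were called. By gene, a Simes test over the transcripts called 0.702% of all genes with several transcripts and none of the 10. Of the 39, 19 were above 0 in all 6 libraries, 3 were listed at 0 in all of them and 20 at 0 in at least 1. Transcripts of these genes share most of their sequence, so an estimate of 0 can be a failed estimate, and shares that jump between 0 and a high value are given as listed.

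The insulin receptor exists as an A form without and a B form with a short exon 11 of 36 bp, found here at 12:3879920-3879955. Insulin-like growth factor 2 binds the A form more strongly. The exon was in 3 of the 7 Insr transcripts, and those transcripts carried 61.2%, 53.8% and 20.0% of the Insr RPKM in knockdown libraries, against 2.18%, 41.2% and 30.1% in control libraries. Inclusion was thus higher in knockdown in batches 1 and 2 and lower in batch 3, and the groups overlapped. The mean was 45.0% ± 22.0 in knockdown libraries and 24.5% ± 20.1 in control libraries (SD, n = 3 each), a difference of 20.6 percentage points (exact permutation test within batches, two-sided, p = 0.50, smallest possible 0.25). The 2.18% of the control library of batch 1 carried that difference, and without batch 1 it was 1.3 points. In that library 1 transcript without the exon held 97.8% of Insr. The same transcript held 24.0% in the control library of batch 2. It was listed at 0 in the control library of batch 3 and in all 3 knockdown libraries. The filter left it out of the diffSplice test. With no filter its log2 departure was -10.4 (limma diffSplice, unadjusted p = 0.010, adjusted p = 0.30). A transcript with the exon, listed above 0 only in the knockdown libraries of batches 2 and 3, was also left out. With no filter its log2 departure was 8.86 (limma diffSplice, unadjusted p = 0.024, adjusted p = 0.40). Each was at 0 in 4 of the 6 libraries. As levels, the transcripts with exon 11 summed to 2.01, 2.15 and 0.619 RPKM in knockdown libraries against 0.0547, 1.24 and 0.625 RPKM in control libraries, and those without it to 1.27, 1.85 and 2.47 RPKM against 2.45, 1.77 and 1.45 RPKM.

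Insr also had an alternative first exon of 41 bp, 12:3969265-3969305, used by 1 transcript. This transcript made up 7.79%, 41.3% and 29.4% of Insr in knockdown libraries, against 0.0%, 34.8% and 45.7% in control libraries, with overlapping groups. The long form of the last exon, of 5153 bp, made up 69.0%, 86.9% and 88.3% in knockdown libraries, against 100%, 83.9% and 85.8% in control libraries.

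Igf1r was spread over 3 transcripts that use 2 first exons, with a further transcript listed at 0 in all libraries. The most upstream first exon, 428 bp at 1:129983899-129984326, carried 48.4%, 0.0% and 44.2% of Igf1r in knockdown libraries, against 39.1%, 57.9% and 42.8% in control libraries, a mean difference of -15.7 percentage points that was 5.34 without batch 2. In the knockdown library of batch 2 a single other transcript was listed with 99.4% of the gene, and the other 5 libraries lay between 39.1% and 57.9%. The long last exon of 7717 bp held 89.9%, 99.4% and 75.8% in knockdown libraries, against 75.4%, 81.0% and 79.1% in control libraries.

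The 2 transcripts of Irs1 differ in the length of their last exon, and the long form carried 74.7%, 83.6% and 65.7% of Irs1 in knockdown libraries against 76.1%, 87.9% and 55.7% in control libraries. For Irs2, the transcript that starts upstream, with a first exon at 16:83286050-83290938, carried 47.2%, 42.2% and 23.5% in knockdown libraries against 30.5%, 36.9% and 40.9% in control libraries. Both genes had overlapping groups and no shared direction over the batches.

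Shc1 is known to give p66, p52 and p46 proteins from alternative starts. Its downstream first exon, at 2:208162850-208163344, carried 11.1%, 16.6% and 14.1% of Shc1 in knockdown libraries against 13.9%, 7.16% and 11.2% in control libraries. A cassette exon of 168 bp at 2:208163177-208163344, measured between the 2 transcripts of the upstream first exon, was included at 45.9%, 26.2% and 28.2% in knockdown libraries, against 36.8%, 6.59% and 31.9% in control libraries, where the low value is that of batch 2. For Grb2, the main transcript of 2579 nt carried 71.3%, 73.4% and 75.0% in knockdown libraries against 74.1%, 79.6% and 74.9% in control libraries.

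Grb10 carried 2 cassette exons of 165 bp. That at 14:91860206-91860370 was included at 22.1%, 76.2% and 30.3% in knockdown libraries, against 41.4%, 50.8% and 36.3% in control libraries. That at 14:91842200-91842364, measured over the 3 transcripts that hold it or skip it between the same exons, was included at 73.2%, 100% and 85.0% in knockdown libraries, against 59.8%, 83.6% and 100% in control libraries. With 454 to 750 reads a library over the whole gene, shares of this gene are the least precise of the 10.

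Pik3r1 used separate first exons. The most upstream one, at 2:50975482-50975726, carried 27.9%, 97.4% and 44.1% of Pik3r1 in knockdown libraries, against 21.2%, 63.6% and 93.7% in control libraries. A first exon at 2:50922897-50923016 carried 71.3%, 0.0% and 55.9% in knockdown libraries, against 53.7%, 0.0% and 0.0% in control libraries, and a further one, at 2:50964884-50965217, was listed only in the control library of batch 2, at 36.4%. The first 2 lay in both groups and switched between libraries of the same group. The transcript that starts within the gene and reached the highest share of the short ones with 10 exons held 0.792%, 2.57% and 0.0% in knockdown libraries, against 0.0%, 0.0% and 6.31% in control libraries.

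Pik3r2 gave the single unadjusted p below 0.05 among the transcripts that passed the filter. Its transcript with a cassette exon of 71 bp, at 16:20274415-20274485, carried 22.1%, 10.4% and 50.6% of Pik3r2 in knockdown libraries, against 16.8%, 8.6% and 8.89% in control libraries. Each knockdown library exceeded the control library of its batch, most of all in batch 3, but the groups overlapped. The log2 departure from the rest of the gene was 1.5 (limma diffSplice, unadjusted p = 0.041, adjusted p = 0.52), and without batch 3 it was 0.45. A stretch of 313 bp in the same gene, 16:20274950-20275262, is spliced out as an intron in a new combination of exons. It is part of an exon in the transcript that matches the reference. Among the transcripts that keep it or splice it out whole, it was kept at 63.5%, 68.2% and 64.3% in knockdown libraries, against 61.3%, 56.8% and 62.3% in control libraries. These groups did not overlap, with a difference of 5.22 percentage points (exact permutation test within batches, two-sided, p = 0.25, the smallest possible), and the measure was added after the data were seen. The share of such structures over all genes whose groups stay apart was not determined. A shorter intron there, 194 bp at 16:20274950-20275143, was kept at 96.0%, 100% and 98.2% in knockdown libraries. In control libraries it was kept at 96.0%, 95.7% and 98.6%, with overlapping groups. Pik3r3 had a transcript of 7019 nt with a long last exon, of 5071 bp. Its other transcript, of 1386 nt, lies within the span of the longer transcript. By RPKM the long form carried 52.8%, 51.9% and 47.7% in knockdown libraries against 45.3%, 46.0% and 49.9% in control libraries. By reads it carried 85.0%, 84.6% and 82.2% in knockdown libraries against 80.8%, 81.2% and 83.4% in control libraries. Whether the short transcript marks a separate end of the gene was not tested.

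**Figure D5:**
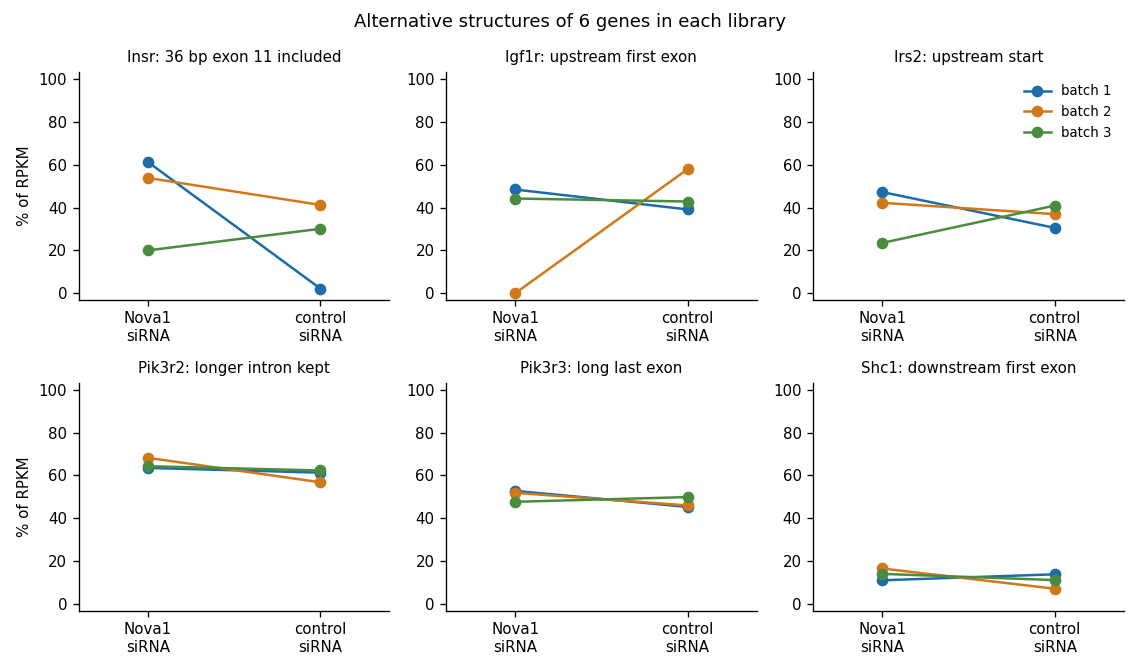
Percentage of RPKM for 6 alternative structures of 6 genes in each library, taken over the whole gene except for the Pik3r2 intron, which is taken over the transcripts that keep it or splice it out whole, the knockdown group left of the control group and a line joining the libraries of a batch. Insr exon 11 spans 20.0% to 61.2% in knockdown and 2.18% to 41.2% in control libraries, and the kept Pik3r2 intron is the structure whose groups do not overlap.

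Of 85 further genes of insulin and IGF signalling, 80 could be tested, 0 were called in either direction by limma, against 1.71% of all genes. An unadjusted p below 0.05 was found for 26, against 23.9% of all genes, 21 of them with a positive and 5 with a negative estimate. The estimate was positive for 54 and negative for 26, against 50.8% positive among all genes, with a median log2 fold change of 0.08 and a median length of 4221 nt. Among 14 phosphatases and inhibitors of the pathway 12 estimates were positive, at a median of 0.12, and among 12 genes of the RAS and ERK branch 5 were positive, at a median of -0.07. For 15 genes of PI3K and AKT the median was 0.06, and for 9 genes of the mTOR complexes and their targets it was 0.03.

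Igf2 and Insrr were among the 3 of these genes with the smallest adjusted p. Igf2, a ligand of Igf1r and of the A form of Insr, had 46.9, 33.0 and 38.3 CPM in knockdown libraries against 40.3, 28.5 and 30.5 CPM in control libraries, higher within every batch but with overlapping groups (log2 fold change 0.25, SE 0.05, limma, adjusted p = 0.080). Insrr, the insulin receptor-related receptor, had 146, 222 and 140 CPM in knockdown libraries against 131, 186 and 116 CPM in control libraries (log2 fold change 0.23, SE 0.05, limma, adjusted p = 0.082). Per length Insrr stood above both Insr and Igf1r in every library, at 36.7, 58.4 and 33.6 RPKM in knockdown libraries and 33.1, 45.2 and 29.7 RPKM in control libraries.

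The duct, stellate and other endocrine marker sums were higher, and the acinar sums lower, in knockdown in every batch. The immune and endothelial sums had no shared direction over the batches. In bulk RNA fewer cells of a type and less RNA per cell cannot be told apart. The 4 duct markers tested summed with the untested ones to 201, 134 and 178 RPKM in knockdown libraries against 155, 116 and 135 RPKM in control libraries, of which Krt7 made up most, while Krt19 was lower in knockdown in every batch, at 17.3, 6.51 and 9.04 RPKM against 19.1, 7.93 and 9.16 RPKM in control libraries, and Sox9 and Cftr were at 0.0522 RPKM or less. Stellate and fibroblast markers summed to 27.8, 30.9 and 35.9 RPKM in knockdown libraries against 13.1, 14.8 and 30.6 RPKM in control libraries, with 7 of 9 estimates positive and 1 call, Col3a1, and in batch 3 Vim, Pdgfrb and Pdgfra were lower in knockdown. Acinar markers summed to 351, 269 and 114 RPKM against 463, 321 and 153 RPKM in control libraries, with 10 of 11 estimates negative and 1 call, Ctrb1. Markers of the other islet endocrine cells summed to 7390, 15800 and 10200 RPKM in knockdown libraries against 5530, 14500 and 7890 RPKM in control libraries, with Ghrl listed at 0 in all of them, and 0 of 7 called in limma, 2 having an unadjusted p below 0.05. Immune markers summed to 16.8, 22.8 and 11.4 RPKM in knockdown libraries against 14.8, 14.1 and 11.9 RPKM in control libraries, with 7 of 8 estimates positive at a median log2 fold change of 1.01 and 2 calls in opposite directions, Lyz2 higher at 1.43 and C1qa lower at -0.47 in knockdown. Endothelial markers summed to 2.48, 1.45 and 1.22 RPKM against 2.42, 2.03 and 1.21 RPKM. Insr, Grb10 and Pik3r3 were higher in knockdown within each batch, as were the duct, stellate and other endocrine sums, and the part of these cells in the values of the 3 genes was not tested.

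Outside the 10 genes, the libraries' pattern of Insr was met most closely by Plagl2, Kif3a and Ptprz1, at distances of 0.079, 0.096 and 0.113 between log2 CPM values centred on each gene's mean over the 6 libraries. Plagl2 is a zinc finger protein, Kif3a a kinesin motor subunit and Ptprz1 a receptor tyrosine phosphatase. Among the 10 genes Pik3r3 lay nearest to Insr, at 0.335, followed by Grb10 at 0.465 and Pik3r2 at 0.476, and Igf1r lay farthest, at 1.106. The pattern that Insr shares with its closest genes is a high knockdown library in batch 2 and a low control library in batch 3, at 0.291 and -0.414 for Insr.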

How the data were processed

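Estimated reads and RPKM values for each transcript were deposited by the authors, 1 assembly with 6 sets of values held as text attributes. The submitters' processing notes name TopHat and the build Rnor_5.0, and the program that divided reads among transcripts is not stated in the labels or headers. Of the read values above 0, 18.2% to 18.8% were whole, so no count model was run. Summed reads of a gene's transcripts were kept at the equivalent of 10 reads at median depth in at least 3 libraries, with at least 15 in all. They were scaled by trimmed means of M values (factors 0.94 to 1.137) and fitted with voom and limma 3.58.1 in R 4.3.3, with batch as a block and Benjamini-Hochberg adjustment over 15983 genes at 0.05. Log2 fold changes were computed from the deposited reads. The batch number comes from the titles, and both conditions were examined within each batch; deviations from the group means correlated at 0.38, 0.72 and 0.55 between the libraries of batches 1, 2 and 3. diffSplice tested 31429 transcripts of 9538 genes. First exon and last exon shares are percentages of the gene's RPKM, and shares of cassette exons and kept introns are taken over the transcripts that hold the part or skip it between the same exons; both were compared by exact permutation within batches. The steps were run on simulated whole counts, drawn independently for each gene or transcript. That run therefore does not cover the division of reads among overlapping transcripts. The 10 genes are all named, with transcripts of at least 10% of the gene in a group and the 3 pathway genes with the smallest adjusted p, of which 1 is not reported here. Members, lists and tests were chosen with earlier results of these data known.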

Additional observations from a re-analysis of the deposited data

How the results depend on the processing

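For the log2 fold changes of the 10 genes and Nova1, 112 of 132 alternative values kept their direction and their side of the threshold. Shares of first exons, which have no call, moved by less than 1 SD, but 5 changed sign when 1 batch was left out. The knockdown minus control difference was 7.17 percentage points for Insr without batch 3, against -0.62 in all, and 5.34 for Igf1r without batch 2, against -15.7. It was -6.09 and -0.356 for Irs2 without batch 1 and batch 2, against 1.52, and 20.2 for the upstream first exon of Pik3r1 without batch 3, against -3.03. Under no replicate block, limma called 0 genes (521 at an unadjusted p below 0.05), every one of the 10 genes had an adjusted p of 0.9998, and Nova1 did not pass. Leaving out 1 batch gave 0 to 65 called genes (2804 at an unadjusted p below 0.05 where 0 were called) and 0 to 2 called transcripts (2069 and 2510 unadjusted where 0 were called), and each such fit has 1 residual degree of freedom per gene. Library totals alone gave 91 genes and a median log2 fold change of 0.058, no filter 171 genes and 192 transcripts, and a filter of 50 reads 119 genes and 43 transcripts. limma-trend on log2(RPKM + 1), + 0.1 and + 0.01 called 0 genes (3193, 3111 and 3077 unadjusted), and diffSplice on log2(RPKM + 0.1) called 165 transcripts. The length correction called 586 genes and 1 of the 10 genes, Irs2, at -0.25. Nova1 also lost its call without batch 1 and without batch 2 and in limma-trend, where its log2 fold change was -0.54, -0.73 and -0.76, against -1.12 in the reported fit. Values near 0 changed sign. Igf1r ranged from -0.0088 to 0.2728 when 1 batch was left out. Grb2 was 0.0174 with library totals and 0.0086, 0.0087 and 0.0087 in the limma-trend fits. Shc1 was 0.0456 with library totals, 0.0291, 0.0302 and 0.0303 in the limma-trend fits, and -0.0475 to 0.022 with 1 batch left out. Pik3r2 was -0.0281 with the length correction and -0.02 to 0.0472 with 1 batch left out. The cause was not tested. Insr kept a positive estimate throughout, with adjusted p between 0.18 and 0.27 when 1 batch was left out, and 0.17 to 0.23 for Pik3r3. Shares of transcripts rest on the division of reads among overlapping transcripts, and depth limits those of Grb10 most.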

Other observations

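Ligands and binding proteins of the receptors were unequal in level. Igf1 averaged 0.106 ± 0.0677 CPM in knockdown libraries and 0.0745 ± 0.0535 CPM in control libraries (SD, n = 3 each), so Igf2 was the insulin-like growth factor with the more abundant RNA. Igfbp7, a secreted protein that binds insulin-like growth factors with low affinity, averaged 711 ± 33.8 RPKM in knockdown libraries and 720 ± 51.3 RPKM in control libraries, far above either receptor per length. Igfbp4 followed the batches, with 30.0, 37.2 and 71.5 CPM in knockdown libraries and 31.1, 39.4 and 80.4 CPM in control libraries, so it was high in batch 3, where Igf1r and Irs1 were low. Igf2r, which clears Igf2 and does not signal through a kinase, had 304, 232 and 320.0 CPM in knockdown libraries and 289, 197 and 264 CPM in control libraries. These genes were chosen after their values were seen, apart from Igf2.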
